A study of Homo sapiens with 6 samples.

Results

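NF-kB subunits, their feedback inhibitors and the linked kinase MAP3K8 were measured on Affymetrix U133 Plus 2.0 arrays of total RNA from the RL line, established human B lymphoid cells that carry the t(14,18) translocation of follicular lymphoma. Members were the probe sets whose platform annotation symbol was exactly NFKB1, NFKB2, REL, RELA, RELB, NFKBIA, NFKBIE, TNFAIP3, BIRC3 or MAP3K8. There were 19 such probe sets, of 54675 on the array, and they stood for 9 of the 10 genes. The annotation used here gave none for BIRC3, which was not analysed here. Cells were grown as MALC, multicellular aggregates of the lymphoma cells, collected after 10 days. These were set against suspension cells collected in exponential growth, so growth form and growth phase cannot be told apart. Neither group was treated, both are the same line, and each had 3 samples of 1 array each. Whether these were separate cultures is not in the labels, so each p-value covers the scatter among these arrays, part of which may be technical.

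NF-kB is a family of dimeric transcription factors. NFKB1 and NFKB2 encode precursors that are processed to DNA-binding subunits, while RELA, RELB and REL encode the subunits that carry activation domains. In resting cells IkB proteins such as the product of NFKBIA hold the dimers in the cytoplasm. The canonical pathway frees RELA and REL dimers by IkB degradation, and the non-canonical pathway frees RELB by processing of the NFKB2 precursor. NF-kB in turn switches on genes of its own brakes, and in B cells it is driven by the antigen receptor, CD40, BAFF and Toll-like receptors.

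The arrays gave 1 linear signal per probe set, and the medians lay at 80.6 to 81.5 in MALC against 80.7 to 81.4 for suspension. Samples 2 and 3 of a group were closer to each other (Pearson correlation 0.998 in both groups) than either was to sample 1 (0.991 to 0.992). Correlations with suspension arrays were 0.975 to 0.978 for MALC 1 and 0.954 to 0.964 for the other MALC arrays. Of 7 B cell markers 6 had a probe set. Their summed signal ranged over 30034 to 34175 across MALC arrays, against 30084 to 35101 across suspension arrays, and BLNK, a receptor adaptor, was the 1 marker called (log2 change 0.28). Marker sums of T, myeloid, epithelial and endothelial cells lay between 239.8 and 291 in MALC and between 249 and 309 in suspension. No marker of these lists was called, though some in each list were too dim to be tested. The stromal sum lay at 532 to 583 across MALC arrays, against 616 to 1070.0 across suspension arrays. There COL1A2 read 347 on suspension 2 and 127 on suspension 3, and COL3A1 read 174 on suspension 2. None of the 4 stromal markers tested was called, while COL3A1 and LUM were too dim to be tested. The part of these markers in the results was not tested. In RNA of whole cultures, fewer cells of a kind and less RNA per cell cannot be told apart.

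Most of the family was higher in the aggregates. MAP3K8, TNFAIP3 and NFKB2 had the largest changes, with folds of 2.72, 2.30 and 1.96 in the probe set that changed most, and RELB, REL and RELA followed at folds of 1.57, 1.58 and 1.36. NFKBIA was brighter in every MALC array but did not pass the test, NFKB1 had an estimated fold of 1.11 and did not pass, and NFKBIE averaged 536 ± 52.0 in MALC and 539 ± 33.5 in suspension (SD, n = 3 each). Changes were taken on log2(signal + 16). Of the 19 probe sets 17 were bright enough to be tested, meaning a mean at or above the 40th percentile (a signal of 53.4). Of these 17, 11 were called higher in MALC and none lower, at an adjusted p under 0.05 in limma over all 32768 probe sets tested, where 41.7% were called in either direction, 21.2% higher and 20.4% lower. In 14 of the 17 every MALC array was above every suspension array (25.9% of all probe sets tested), and in none of the 17 was it below (30.3%). A called rise of at least 2-fold was seen in 3 of the 17, against 3.33% of all tested. The median log2 change was 0.44 over the 17 and −0.04 over all probe sets tested. With samples 2 and 3 of each group averaged and counted as 1, the calls numbered 4 (1 probe set each of NFKB2 and MAP3K8 and both of TNFAIP3), and they numbered 7 without MALC 2 and 7 without MALC 3. Over all probe sets these fits called 3100, 4956 and 5176 higher, against 6948 with every array.

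**Figure D1:**
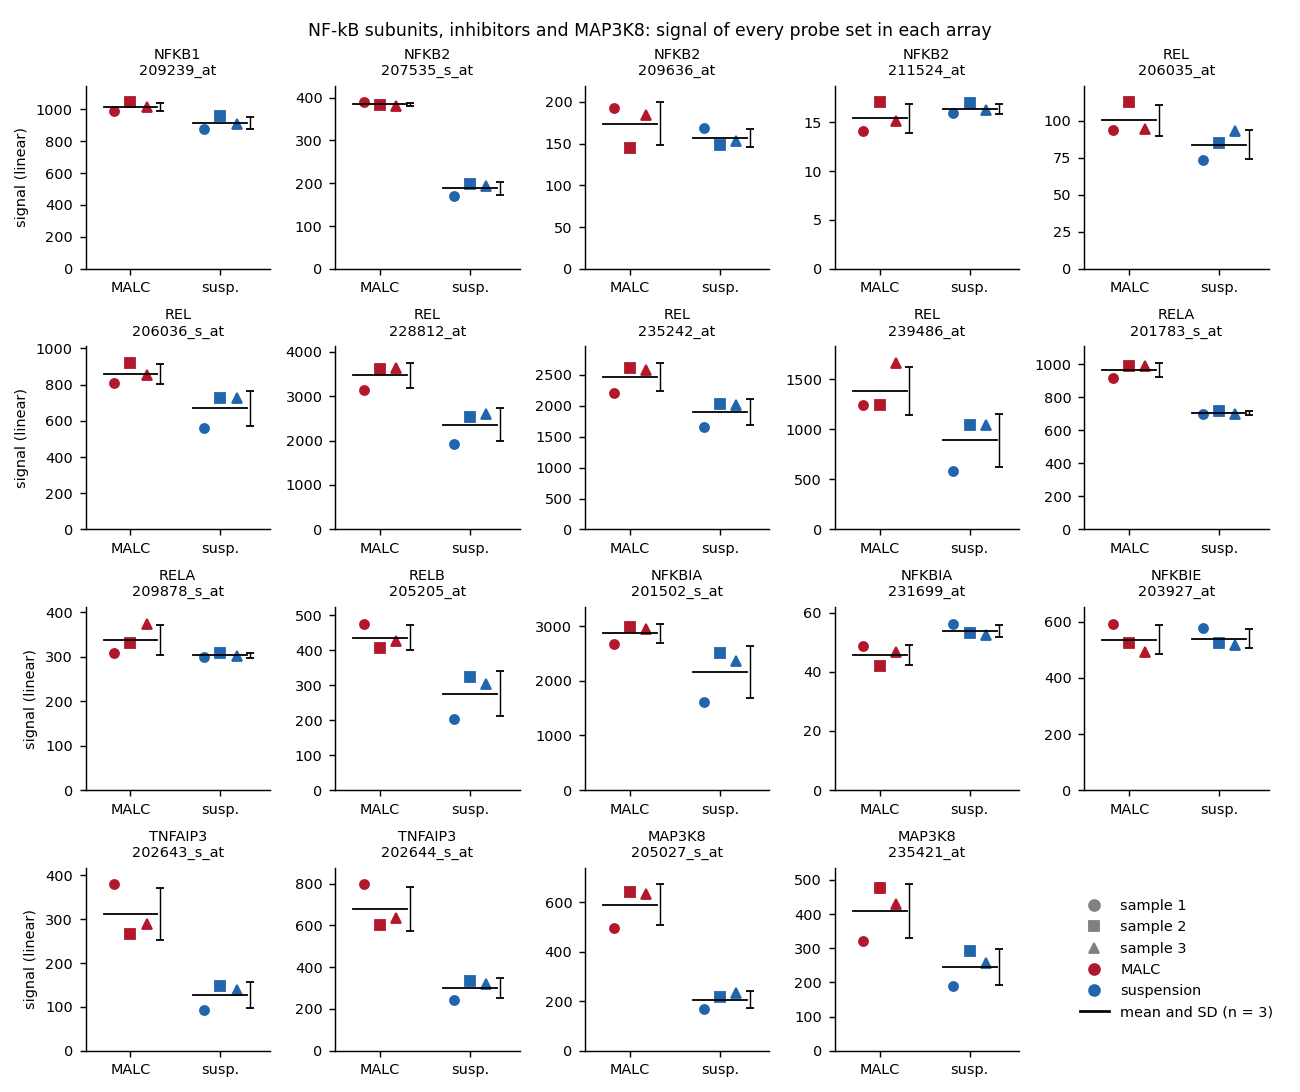
Linear signal of all 19 member probe sets in each array, MALC at the left and suspension at the right of each panel, with marker shapes for samples 1 to 3 and the mean and SD (n = 3) in black. MALC arrays lie above suspension arrays in both TNFAIP3 panels, both MAP3K8 panels and NFKB2 207535_s_at, and suspension 1 (blue circle) lies below suspension 2 and 3 in most panels.

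**Figure D2:**
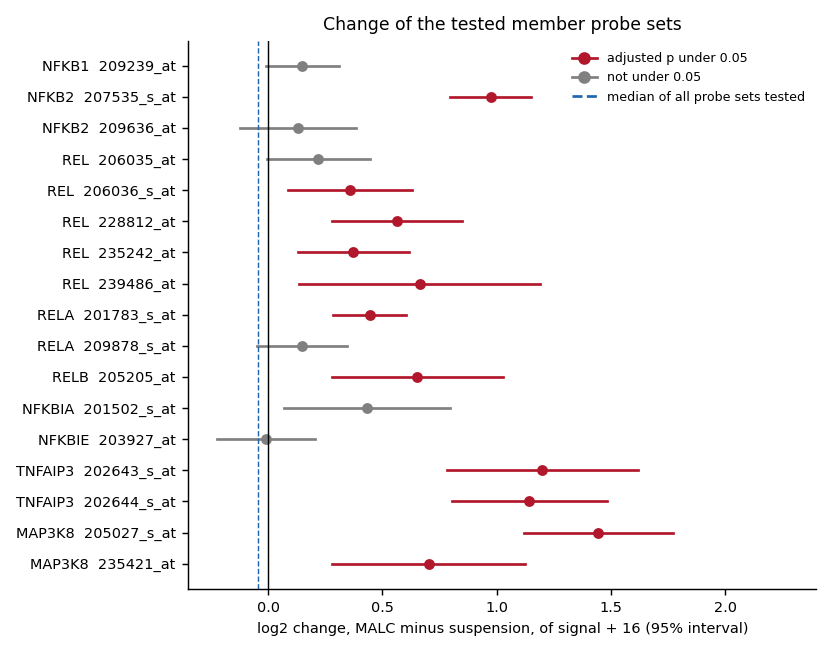
Log2 change (MALC minus suspension, on signal + 16) of the 17 tested probe sets with 95% intervals; red marks an adjusted p under 0.05 and the dashed line the median of all probe sets tested. The 11 red intervals lie to the right of 0, while NFKBIE sits at −0.01.

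Among the brakes, TNFAIP3 encodes a ubiquitin-editing enzyme that shuts off signalling upstream of the IkB kinases. Its probe set 202644_s_at read 797, 603 and 637 in MALC 1, 2 and 3, against 244, 335 and 319 in suspension 1, 2 and 3. Its other probe set, 202643_s_at, read 380, 266 and 290.2 in MALC against 94.1, 149 and 139 in suspension. The groups did not overlap in either, and in both MALC 1 was the brightest and suspension 1 the dimmest array. The log2 changes were 1.14 (95% interval 0.80 to 1.48, adjusted p = 0.00101) and 1.20 (0.78 to 1.62, adjusted p = 0.00184), so the probe sets of this gene gave nearly the same value. Both were called under each of the alternatives run, at log2 changes of 0.88 to 1.36.

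NFKBIA encodes IkB-alpha, the classic feedback inhibitor that carries dimers back out of the nucleus. Its probe set 201502_s_at read 2671, 2988 and 2952 in MALC, against 1612, 2505 and 2357 in suspension. All MALC arrays were brighter, the means being 2870.4 ± 174 in MALC and 2158 ± 479 in suspension (SD, n = 3 each), and suspension 1 lay well under the other suspension arrays. The log2 change of 0.43 (0.07 to 0.80) had an adjusted p of 0.0591 and was not called. It passed in 6 of the 18 alternatives. These were the sample number as a replicate block (adjusted p = 0.0159), quantile normalization, array weights and the fit without both arrays numbered 1. It also passed without suspension 1, where the change was smaller (log2 change 0.24, adjusted p = 0.0392), or without suspension 2 (log2 change 0.55). The second NFKBIA probe set, 231699_at, was too dim to be tested. It read 48.6, 42.1 and 46.6 in MALC, against 56.3, 53.1 and 52.5 in suspension, so its MALC arrays were all the dimmer ones.

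NFKBIE encodes IkB-epsilon, an inhibitor that acts mainly on REL and RELA dimers in B cells. It read 594, 524 and 492 in MALC and 578, 525 and 516 in suspension. Array by array the groups interleaved, and the log2 change of −0.01 had an interval of −0.23 to 0.20, which leaves out a change of the size seen in TNFAIP3.

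Of the subunits, NFKB2 had the largest called change. Its probe set 207535_s_at read 389, 382 and 381 in MALC, against 171, 198 and 194 in suspension. The means were 384 ± 4.28 in MALC and 188 ± 14.7 in suspension (SD, n = 3 each), with no overlap, and the log2 change was 0.97 (0.80 to 1.15, adjusted p = 0.000213). A second NFKB2 probe set, 209636_at, was not called. It read 193, 145 and 184 in MALC and 169, 148 and 153 in suspension, with overlapping groups and a log2 change of 0.13 (−0.12 to 0.38, adjusted p = 0.369). The 2 intervals do not overlap. Single arrays moved the second value, to 0.25 without MALC 2 (adjusted p = 0.0759) and 0.06 without MALC 1. The third, 211524_at, stayed between 14.1 and 17.0 in all 6 arrays, under the brightness limit.

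RELB, the partner of processed NFKB2 in the non-canonical pathway, was measured by 205205_at. It read 476, 406 and 428 in MALC, against 204, 322 and 303 in suspension. The groups did not overlap, and MALC 1 was the brightest and suspension 1 the dimmest array, as in TNFAIP3. The log2 change was 0.65 (0.28 to 1.03, adjusted p = 0.0145), and the call was lost when samples 2 and 3 were averaged (adjusted p = 0.0608). The log2 change was 0.40 with both arrays numbered 1 left out.

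REL encodes c-Rel, the subunit tied most closely to mature B cells and amplified in some B cell lymphomas. It had 5 probe sets, and in each of them all MALC arrays were above all suspension arrays. Probe set 228812_at read 3139, 3615 and 3632 in MALC, against 1929, 2532 and 2596 in suspension. Sample 1 was the dimmest of its group on both sides, and the log2 change was 0.56 (0.28 to 0.85, adjusted p = 0.00814). Probe set 239486_at read 1247, 1244 and 1663 in MALC, against 588, 1039 and 1042 in suspension, with suspension 1 far below the rest (log2 change 0.66, 0.13 to 1.19, adjusted p = 0.0493). For 235242_at the signals were 2201, 2611 and 2574 in MALC, against 1652, 2031 and 2018 in suspension (log2 change 0.37, adjusted p = 0.0242). For 206036_s_at they were 807, 919.5 and 851 in MALC, against 559, 724 and 728 in suspension (log2 change 0.36, adjusted p = 0.0402). These 3 repeat the order seen in 228812_at in that suspension 1 was the dimmest array. The last, 206035_at, read 93.4, 112 and 94.7 in MALC, against 73.5, 84.6 and 93.3 in suspension, nearly touching, and was not called (log2 change 0.22, adjusted p = 0.104). With samples 2 and 3 averaged, none of the REL probe sets was called (adjusted p = 0.0647 for 228812_at). Single arrays also decided calls: 206036_s_at was lost without any 1 array except MALC 1, 239486_at without any 1 of the MALC arrays or suspension 1, and 235242_at without MALC 2 or MALC 3 (adjusted p from 0.0514 to 0.157). Probe set 239486_at was also lost with no filter, after median centring and without the variance trend, and its log2 change was 0.39 when suspension 1 was left out, while that of 206036_s_at was 0.24 and that of 206035_at 0.14.

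RELA encodes p65, the main activating subunit of the canonical pathway. Its probe set 201783_s_at read 916, 987 and 991 in MALC, against 699.9, 715 and 698 in suspension. The suspension arrays lay within a narrow band that no MALC array reached, and the log2 change was 0.44 (0.28 to 0.60, adjusted p = 0.00208). Probe set 209878_s_at read 309, 332 and 375 in MALC and 299, 309.6 and 302 in suspension, where MALC 1 lay inside the suspension range. Its log2 change of 0.15 (−0.05 to 0.34) was not called (adjusted p = 0.199). It was 0.07 without MALC 3, and 0.20 and called with both arrays numbered 1 left out (adjusted p = 0.0392). The 201783_s_at call was lost with samples 2 and 3 averaged (adjusted p = 0.061).

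NFKB1 encodes the precursor of p50, the usual partner of RELA. It read 990.0, 1043 and 1013 in MALC, against 879, 957 and 906 in suspension. All MALC arrays were brighter by a small margin, and the log2 change of 0.15 (−0.01 to 0.31) was not called (adjusted p = 0.119), but was with array weights (0.0265) and with both arrays numbered 1 left out (0.0423). Its interval lies wholly below that of NFKB2 207535_s_at.

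MAP3K8 encodes a kinase that the NFKB1 precursor binds and restrains and that feeds the ERK pathway once released. Its probe set 205027_s_at read 495, 640.4 and 633 in MALC, against 170.2, 218 and 232 in suspension. The lowest MALC array was above any suspension array by a wide margin, with means of 589.6 ± 82.0 in MALC and 207 ± 32.5 in suspension (SD, n = 3 each). The log2 change was 1.44 (1.12 to 1.77, adjusted p = 0.000406), the largest of the 17 tested probe sets. The second probe set, 235421_at, read 322, 475 and 429 in MALC, against 189, 290.6 and 256 in suspension. There the gap was smaller, with MALC 1 not far above suspension 2, and the log2 change was 0.70 (0.28 to 1.12, adjusted p = 0.0173). It was no longer called when MALC 2 (adjusted p = 0.0677) or MALC 3 (0.0641) was left out, or when samples 2 and 3 were averaged (0.0909).

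Many of these genes are described as targets of NF-kB itself, so their RefSeq promoters were searched for the kappaB consensus, the binding motif of NF-kB dimers, on both strands. A promoter window ran from 250 bases before to 50 bases after an annotated start, and 13 windows were given for 7 of the 9 genes (not for RELB and NFKBIE). Windows of 6 of the 7 genes held at least 1 match (85.7%, against 13.3% of 27305 genes with a window), RELA being the exception. Counted over windows it was 9 of 13 (69.2%) against 11.3% of 35116, although 2 windows of MAP3K8 overlap and share a match. A match is a description of the letters, not evidence of binding. Many members are described targets, so their high share is no result of these arrays. The members also had more windows per gene (13 for 7 genes, against 35116 for 27305), which gives more room for a match. The windows below, on GRCh38.p14, are 1 for each gene with a called probe set and a match, plus NFKBIA, taking the window with the most matches and then the match nearest the start. Each is written 5′ to 3′ along the gene, with matches in capitals and joined capitals where 2 matches overlap.
NFKB2, chr10:102394328-102394627, plus strand: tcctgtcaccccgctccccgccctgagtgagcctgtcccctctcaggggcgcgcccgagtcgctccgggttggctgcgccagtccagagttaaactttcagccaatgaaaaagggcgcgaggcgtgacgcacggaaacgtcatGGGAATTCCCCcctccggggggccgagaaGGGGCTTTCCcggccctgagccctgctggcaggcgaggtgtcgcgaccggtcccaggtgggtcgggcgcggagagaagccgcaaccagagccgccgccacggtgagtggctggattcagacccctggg
TNFAIP3, chr6:137867009-137867308, plus strand: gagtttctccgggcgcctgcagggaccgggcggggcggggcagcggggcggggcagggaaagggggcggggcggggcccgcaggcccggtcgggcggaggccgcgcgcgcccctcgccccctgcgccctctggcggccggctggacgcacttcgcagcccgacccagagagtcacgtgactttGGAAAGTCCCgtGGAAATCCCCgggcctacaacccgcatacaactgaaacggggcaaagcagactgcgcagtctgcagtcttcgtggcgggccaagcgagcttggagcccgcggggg
MAP3K8, chr10:30433771-30434070, plus strand: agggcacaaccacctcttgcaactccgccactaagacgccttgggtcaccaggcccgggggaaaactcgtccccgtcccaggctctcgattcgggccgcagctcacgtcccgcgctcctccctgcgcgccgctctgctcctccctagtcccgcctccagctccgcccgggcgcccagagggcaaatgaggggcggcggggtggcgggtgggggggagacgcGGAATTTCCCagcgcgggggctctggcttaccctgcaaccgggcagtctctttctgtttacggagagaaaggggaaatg
REL, chr2:60881324-60881623, plus strand: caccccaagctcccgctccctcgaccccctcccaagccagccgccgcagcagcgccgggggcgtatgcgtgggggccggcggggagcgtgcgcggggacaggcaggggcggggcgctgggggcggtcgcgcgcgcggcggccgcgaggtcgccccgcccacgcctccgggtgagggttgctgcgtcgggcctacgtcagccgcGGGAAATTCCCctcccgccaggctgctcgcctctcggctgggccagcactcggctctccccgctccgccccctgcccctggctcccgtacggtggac
NFKBIA, chr14:35404700-35404999, minus strand: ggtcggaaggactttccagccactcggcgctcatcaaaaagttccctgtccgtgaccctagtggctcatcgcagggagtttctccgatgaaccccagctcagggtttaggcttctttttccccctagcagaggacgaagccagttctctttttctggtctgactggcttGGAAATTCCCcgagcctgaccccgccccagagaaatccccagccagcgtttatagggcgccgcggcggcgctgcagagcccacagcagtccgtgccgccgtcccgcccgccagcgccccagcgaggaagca
In the NFKB2 window the matches began 107, 106 and 78 bases before the start, the first pair overlapping by all but 1 base. TNFAIP3 held GGAAAGTCCC and GGAAATCCCC, which began 67 and 55 bases before its start. MAP3K8 had GGAATTTCCC at 29 bases, REL an overlapping pair at 47 and 46 bases, and NFKBIA GGAAATTCCC at 81 bases. NFKB1, which was not called, also held a match, GGGAATTTCC, at 49 bases before its first annotated start. A match in the window thus occurred in genes with called changes and in genes without them.

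The members did not vary alike within the groups. Suspension 1 was the dimmest suspension array in 14 of the 17 tested probe sets, against 36.6% of all probe sets tested. The gap was widest in REL 239486_at, RELB and NFKBIA, whose suspension 1 values were 0.54, 0.39 and 0.39 below the group mean on the log2 scale. MALC 1 was the dimmest MALC array in 10 of the 17 (39% of all probe sets tested) and the brightest in 6 (40.1% of all). Both orders were thus common among all probe sets, not only among the members. MAP3K8 and 4 of the 5 REL probe sets were dimmest in MALC 1, while TNFAIP3 and RELB were brightest there, at 0.24 to 0.29 and 0.12 above the group mean. Whether sample 1 differed in handling is not given in the labels, and its part in the results was not tested beyond the fits that left it out. With both arrays numbered 1 left out, 14 of the 17 were called higher, among them all 11. Calls also rose over all probe sets, with 9084 higher and 9075 lower in that fit, against 6948 and 6701 with every array.

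**Figure D3:**
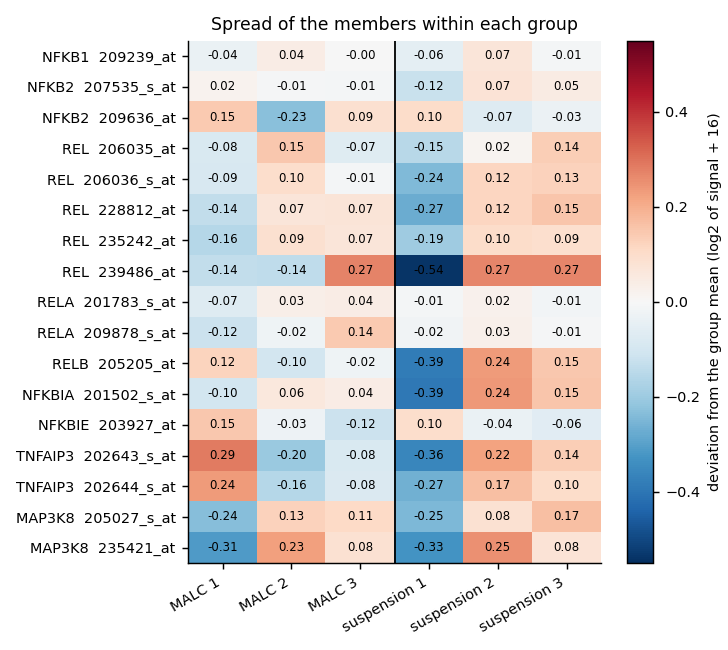
Deviation of each array from its group mean (log2 of signal + 16) for the 17 tested member probe sets, MALC arrays at the left and suspension arrays at the right; red is above and blue below the group mean. Suspension 1 is blue in most rows, whereas MALC 1 is blue for REL and MAP3K8 and red for TNFAIP3 and RELB.

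Around the members, 4 lists of other pathway genes were read, each gene through the probe set of highest mean signal. These lists were also chosen with earlier results known. Over all 13765 genes read this way, 18.6% were called higher and 22.7% lower, and the median log2 change was −0.06. Of 34 target genes outside the members 28 were tested, and 13 rose and 2 fell, with a median log2 change of 0.26. GADD45B, a stress sensor that restrains JNK signalling, rose 5.12-fold, and CCR7, the chemokine receptor that guides cells into lymph nodes, 3.73-fold. SQSTM1, the autophagy receptor p62, rose 2.72-fold and BCL2A1, an anti-apoptotic BCL2 relative, 2.25-fold (adjusted p from 2.35e-05 to 0.00075 for the 4). The counted GADD45B probe set read 1875, 2132 and 2309 in MALC, against 411, 386 and 393 in suspension. Its other probe sets had smaller folds of 3.89, 3.04 and 1.14, the last not called (adjusted p = 0.119). CCR7 read 430.2, 223 and 263 in MALC, with MALC 1 the brightest, against 55.9, 67.8 and 79.1 in suspension. The 2 that fell were PLEK, a platelet and leukocyte signalling protein, and SOD2, the mitochondrial superoxide dismutase, at log2 changes of −0.84 and −0.37. SOD2 was read through 1 probe set, its only one in the annotation used here, with signals not far from the array medians. It read 80.5, 81.7 and 73.5 in MALC, against 116, 106 and 98.1 in suspension. Falls numbered 4 without suspension 1, and with samples 2 and 3 averaged 6 targets rose and 1 fell.

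Of 16 other inhibitors and IkB-like regulators 14 were tested (BCL3 had no probe set in the annotation used here and TNIP3 was too dim). Of these 5 rose and 1 fell (18.6% and 22.7% of all genes), with a median log2 change of 0.13. NFKBIZ, a nuclear IkB-like coactivator, read 499.9, 441 and 454 in MALC, against 247, 271 and 252 in suspension. CYLD, a deubiquitinase that removes the chains on which IkB kinase activation depends, read 492, 592 and 635 in MALC, against 289, 377 and 345 in suspension. TNIP1, an adaptor that works with TNFAIP3, read 2801, 3131 and 3223 in MALC, against 1707, 1933 and 1965 in suspension. Their folds were 1.76, 1.67 and 1.63 (adjusted p = 0.000401, 0.00329 and 0.000768). Other tested CYLD probe sets had folds of 2.56, 2.46, 2.36 and 1.14, the last not called (adjusted p = 0.114). The single fall was NFKBIB, which encodes IkB-beta, at 0.761 of its suspension level (adjusted p = 0.0156), which no longer passed after any 1 of MALC 2, MALC 3, suspension 2 and suspension 3 was dropped, leaving no fall in the list. With the sample number as a replicate block, 2 of this list fell. With samples 2 and 3 averaged, 3 rose and 0 fell.

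**Figure D4:**
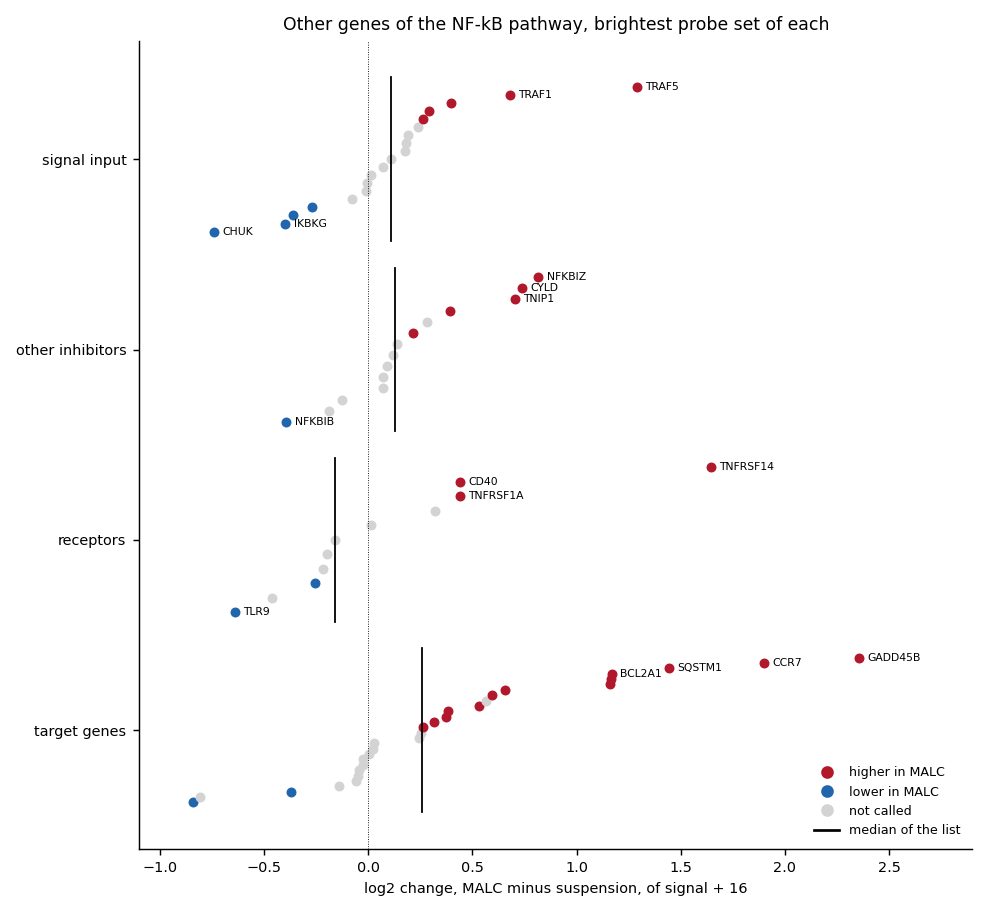
Log2 change (MALC minus suspension, on signal + 16) of the tested genes of 4 pathway lists, 1 point per gene by its brightest probe set, with the list median as a black line and the 16 genes named by rule labelled. Target genes hold the largest rises, GADD45B at 2.36, and signal input genes lie on both sides of 0.

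Of a list of 22 signal input genes 19 were tested, and 5 were higher and 4 lower, with a median log2 change of 0.11. Calls in both directions were also seen over all genes, with 18.6% higher and 22.7% lower. CHUK, the catalytic subunit that drives non-canonical processing of NFKB2, read 1150, 903 and 807 in MALC, against 1599, 1558 and 1605 in suspension, 0.598 of the suspension level (adjusted p = 0.00281). IKBKG, the regulatory subunit, fell to 0.759 of its suspension level (adjusted p = 0.0118, lost without MALC 2), and IKBKB, the canonical catalytic subunit, was not called by this reading (log2 change 0.18), though another of its probe sets was called higher (0.24, adjusted p = 0.0241). TRAF5, an adaptor of CD40 and other TNF receptors, read 4328, 5881 and 5956 in MALC, against 2195, 2197 and 2123 in suspension, a fold of 2.45 (adjusted p = 0.000355). TRAF1, an adaptor that is also an NF-kB target, rose 1.60-fold (adjusted p = 0.00452). Among the falls, TRAF6, a ubiquitin ligase of Toll-like receptor and CD40 signalling, was lower by the probe set counted (log2 change −0.27) but called higher by its other one (0.46, adjusted p = 0.00206), so its direction is uncertain. The number of rises was 8 without MALC 1 and 3 without MALC 3, and that of falls 2 without MALC 2. With samples 2 and 3 averaged, 1 gene of this list rose (TRAF5) and 0 fell, so CHUK, IKBKG and TRAF1 lost their calls.

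Of 14 receptors that feed NF-kB in B cells 11 were tested, and 3 rose and 2 fell (18.6% and 22.7% of all genes), with a median log2 change of −0.16. TNFRSF14, a TNF receptor that is often lost in follicular lymphoma, read 606, 779 and 844 in MALC, against 182, 253 and 245 in suspension, a fold of 3.13 (adjusted p = 0.000398). TNFRSF1A, a receptor for TNF, and CD40, the receptor for T cell help, rose 1.36-fold each (adjusted p = 0.0087 and 0.0289). This CD40 probe set missed the threshold after any 1 of MALC 2, MALC 3, suspension 1 and suspension 3 was dropped, while the other 3 CD40 probe sets had log2 changes of 0.63 to 0.82 and were called. TLR9, the sensor of CpG DNA, read 284, 261 and 236 in MALC, against 463, 395 and 387 in suspension (log2 change −0.64, adjusted p = 0.00216). LTBR, the lymphotoxin beta receptor, was the other fall (log2 change −0.26), while its other 2 tested probe sets were not called. TLR10 was not called by the probe set counted (log2 change −0.20), but its other one was called lower (−0.88, adjusted p = 0.0043). With the sample number as a replicate block 4 receptors fell, and 1 fell without MALC 3. With samples 2 and 3 averaged, 1 rose (TNFRSF14) and 1 fell (TLR9).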

How the data were processed

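The authors deposited linear intensity values, 1 per probe set and array. MAS5 is the only tool in the submitters' processing notes, and its role and version, the background correction and any scaling are not given in the sources used here. Scaling of the arrays before deposit would hide any shift common to all transcripts. Scanner files and detection calls were not analysed here, and precision is limited by the number of arrays.

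Symbols came from the platform annotation (41091 of 54613 non-control probe sets with 1 symbol, 1801 with several, 11721 with none), and those of genes outside the members were updated through RefSeq gene identifiers (GRCh38.p14). Probe sets ending in _s_at or _x_at can share signal between transcripts. Values were set to log2(intensity + 16), which understates changes of dim probe sets, and probe sets at or above the 40th percentile of the mean were tested with limma 3.58.1 in R 4.3.3 (two-sided eBayes with a variance trend and no covariate beside group, Benjamini-Hochberg over 32768 probe sets, 13649 called, 16620 at an unadjusted p under 0.05). The test was checked on simulated data. Means ± SD are of linear signals.

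Deviations from group means correlated at 0.245, 0.168 and 0.14 between samples numbered 1, 2 and 3, so the number was also used as a replicate block; the pairs MALC 2/suspension 3 and MALC 3/suspension 2 gave 0.14 and 0.175, so numbers 2 and 3 are not distinguished, and what a number stands for is not in the labels. Named outside the members were up to 4 of the largest called changes of each list, and other genes after their values were seen. Alternatives are given at the end. Members and lists were chosen with earlier results of these data known.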

Additional observations from a re-analysis of the deposited data

How the results depend on the processing

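The 18 alternatives changed the pseudocount, the filter, the normalization, the unit tested, the variance model, the array weights or the arrays used. Of 297 log2 changes of member probe sets under them, 260 kept their direction and side of the threshold, 23 lost a call, 10 gained one and 4 changed sign. The sign changes were all of NFKBIE, whose log2 change ran from -0.0835 to 0.048 when 1 array was left out, with 0.0046 without MALC 2, 0.048 without MALC 3 and 0.039 without suspension 1, and was 0.0021 with samples 2 and 3 averaged. With the sample number as a replicate block, 12 members, 7457 probe sets higher and 7100 lower were called, and among members and named list genes only the NFKBIA call changed.

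With 1 probe set per gene, 2611 genes were higher and 3266 lower, with 6 of the 9 members higher, because fewer features were tested. Array weights gave 10306 lower; the cause was not tested. With samples 2 and 3 averaged, leaving fewer samples, 3100 probe sets were higher, 2038 lower and 4 members higher. Leaving out 1 array gave 7 to 11 members higher, 4956 to 7575 probe sets higher and 4411 to 7460 lower. Median centring, no filter and no trend each gave 10 members higher. Signal over background was not given, so probe sets with a mean under 53.4 have no test, and a miss with 3 arrays a group does not show equality. Of 288 changes of the 16 named list genes, 15 lost their call and none reversed.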

Other observations

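In several transcripts of the NF-kB target list, picked after their values were seen, suspension 1 lay far from the other suspension arrays. TNF, the cytokine, read 346, 323 and 357 in MALC, against 354, 804 and 794 in suspension, so suspension 1 lay at the MALC level. Its log2 change of −0.81 was not called (adjusted p = 0.0533). CD83, a B cell activation marker, read 5164, 5905 and 6012 in MALC, against 2542, 4786 and 4620 in suspension (log2 change 0.57, adjusted p = 0.0774). LTB, which encodes the lymphotoxin beta subunit, read 7501, 6920 and 7867 in MALC, against 1883, 4329 and 4449 in suspension, and was called (log2 change 1.16, adjusted p = 0.017). For MARCKS, a substrate of protein kinase C, the low suspension 1 value of 100.4 stood against 312 and 266 in the other suspension arrays and 214 to 316 in MALC.

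MALC 1 differed from the other MALC arrays in a further pair of transcripts. TNFRSF17, the plasma cell receptor BCMA, read 1101, 516 and 443 in MALC, against 1117, 824 and 733 in suspension, with sample 1 the brightest of both groups. CXCL8, a neutrophil chemokine under the brightness limit, read 97.4, 34.7 and 34.8 in MALC, against 27.7, 43.5 and 47.7 in suspension.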
